A study of Neurospora crassa with 30 samples.

Results

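The 9 genes that build the 2 main structural polymers of the hyphal wall of *Neurospora crassa* were followed across 10 carbon sources, with sorbose as the source of most interest. They were chosen by gene identifier. They are the 7 chitin synthase genes *chs-1* (NCU03611), *chs-2* (NCU05239), *chs-3* (NCU04251), *chs-4* (NCU09324), *chs-5* (NCU04352), *chs-6* (NCU05268) and *chs-7* (NCU04350), the beta-1,3-glucan synthase gene *fks* (NCU06871, listed as *do* in RefSeq) and *gs-1* (NCU04189, listed as *cot-2*). RefSeq gives no symbol to NCU05239 or NCU04350, and the annotation used in the study calls NCU04350 a chitin synthase 6, so it carries the name *chs-7* here by identifier only. All 9 are among the 9758 genes counted, and all 9 are among the 8501 genes that passed the filter on low counts.

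RNA was sequenced from mycelia of 1 strain, the wild type FGSC 2489, with 3 biological replicates on each source and 30 samples in all. Every culture was grown for 16 hrs in medium with sucrose in constant light, washed, and held for 4 hrs in Vogel's minimal medium with the new source as the sole carbon. The monosaccharides sorbose, fructose, mannose and xylose, the disaccharides maltose, cellobiose and trehalose, and the polyol glycerol were used at 2 mM. Avicel, a crystalline cellulose, and xyloglucan, a plant wall polysaccharide, were given as a percentage by weight that the study's methods and the series' design text state differently. Cultures without carbon or left on sucrose were not analysed here, so each source was set against the mean of the other 9.

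Chitin synthases are membrane enzymes that join N-acetylglucosamine units from UDP-N-acetylglucosamine into chitin, and in *N. crassa* they gather at the Spitzenkörper of the growing hyphal tip and at forming septa. Fungi hold several classes of the enzyme, and those of classes V and VII, here *chs-5* and *chs-7*, carry a myosin motor-like domain beside the catalytic one. *fks* encodes the catalytic subunit of the synthase that makes beta-1,3-glucan from UDP-glucose, whereas the product of *gs-1* is needed for glucan synthase activity without being the catalytic subunit and is related to the yeast protein Knr4/Smi1. Sorbose is a ketohexose, an epimer of fructose, long used in *Neurospora* work because it inhibits glucan synthesis and turns spreading growth into compact colonies.

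Genic counts ran from 13018483 to 21925749 per sample with a median near 15901744, and between the samples the members held from 49 counts (*chs-6*) to 13586 counts (*fks*). Levels are given as CPM, the counts of a gene scaled to a fixed total per library. Library sizes were corrected by TMM, which is edgeR's scaling to the common bulk of genes. Fold changes against the other 9 sources use the mean of the log2 source means, whereas printed CPM means are plain averages. The ratio of printed CPM means can therefore differ from the fold change. As these are bulk samples, fewer cells of a type and less RNA per cell cannot be told apart. In the sorbose samples 3.20%, 9.25% and 9.52% of reads fell outside genes, against 2.55% to 6.61% in the samples of the other sources. The member counts in sorbose are therefore also given from replicate 1 alone. *hex-1*, which encodes the core protein of the Woronin body of filamentous hyphae, averaged 2561 CPM in sorbose and 1709 CPM in the other sources, so hyphal RNA was present as the label mycelia says. The 5 conidiation markers examined summed to between 4886 and 7296 CPM in sorbose, 6633 and 9227 CPM in fructose, 1108 and 1600 CPM in cellobiose and 16468 and 28109 CPM in avicel, and *eas*, a hydrophobin of the conidial coat, made up most of these sums.

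Per kb of gene span, the unit used here to set genes beside each other, *chs-1* had the highest mean level over the 30 samples, at 79.6 CPM per kb. *fks* followed at 70.0 CPM per kb, and *chs-4*, *chs-7*, *chs-5* and *chs-3* lay between 42.0 and 52.0 CPM per kb. *gs-1* had 21.8 CPM per kb, *chs-2* had 9.85 CPM per kb and *chs-6* had 1.71 CPM per kb. Gene spans hold introns, so these levels are lower than levels per kb of transcript would be. The order sets 5 abundant synthases and *fks* apart from *chs-2* and *chs-6*, which were minor transcripts on every source.

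All 9 members varied over the 10 carbon sources at an adjusted p under 0.01 in the quasi-likelihood F test of edgeR (Benjamini-Hochberg adjusted over all genes), but so did 93.1% of all genes tested, so the count of members stands near the background. The size of the variation was modest. The highest source mean was from 1.54 times (*chs-3*) to 2.44 times (*chs-5*) the lowest, beside a median of 2.27 times over the 6760 genes with a mean of at least 10 CPM. *fks* at 2.27 times and *gs-1* at 2.30 times stood at this median, and *chs-5* lay above it. Below it lay *chs-7* at 2.02 times, *chs-4* at 1.87 times, *chs-6* at 1.81 times, *chs-2* at 1.70 times, *chs-1* at 1.64 times and *chs-3*.

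**Figure D1:**
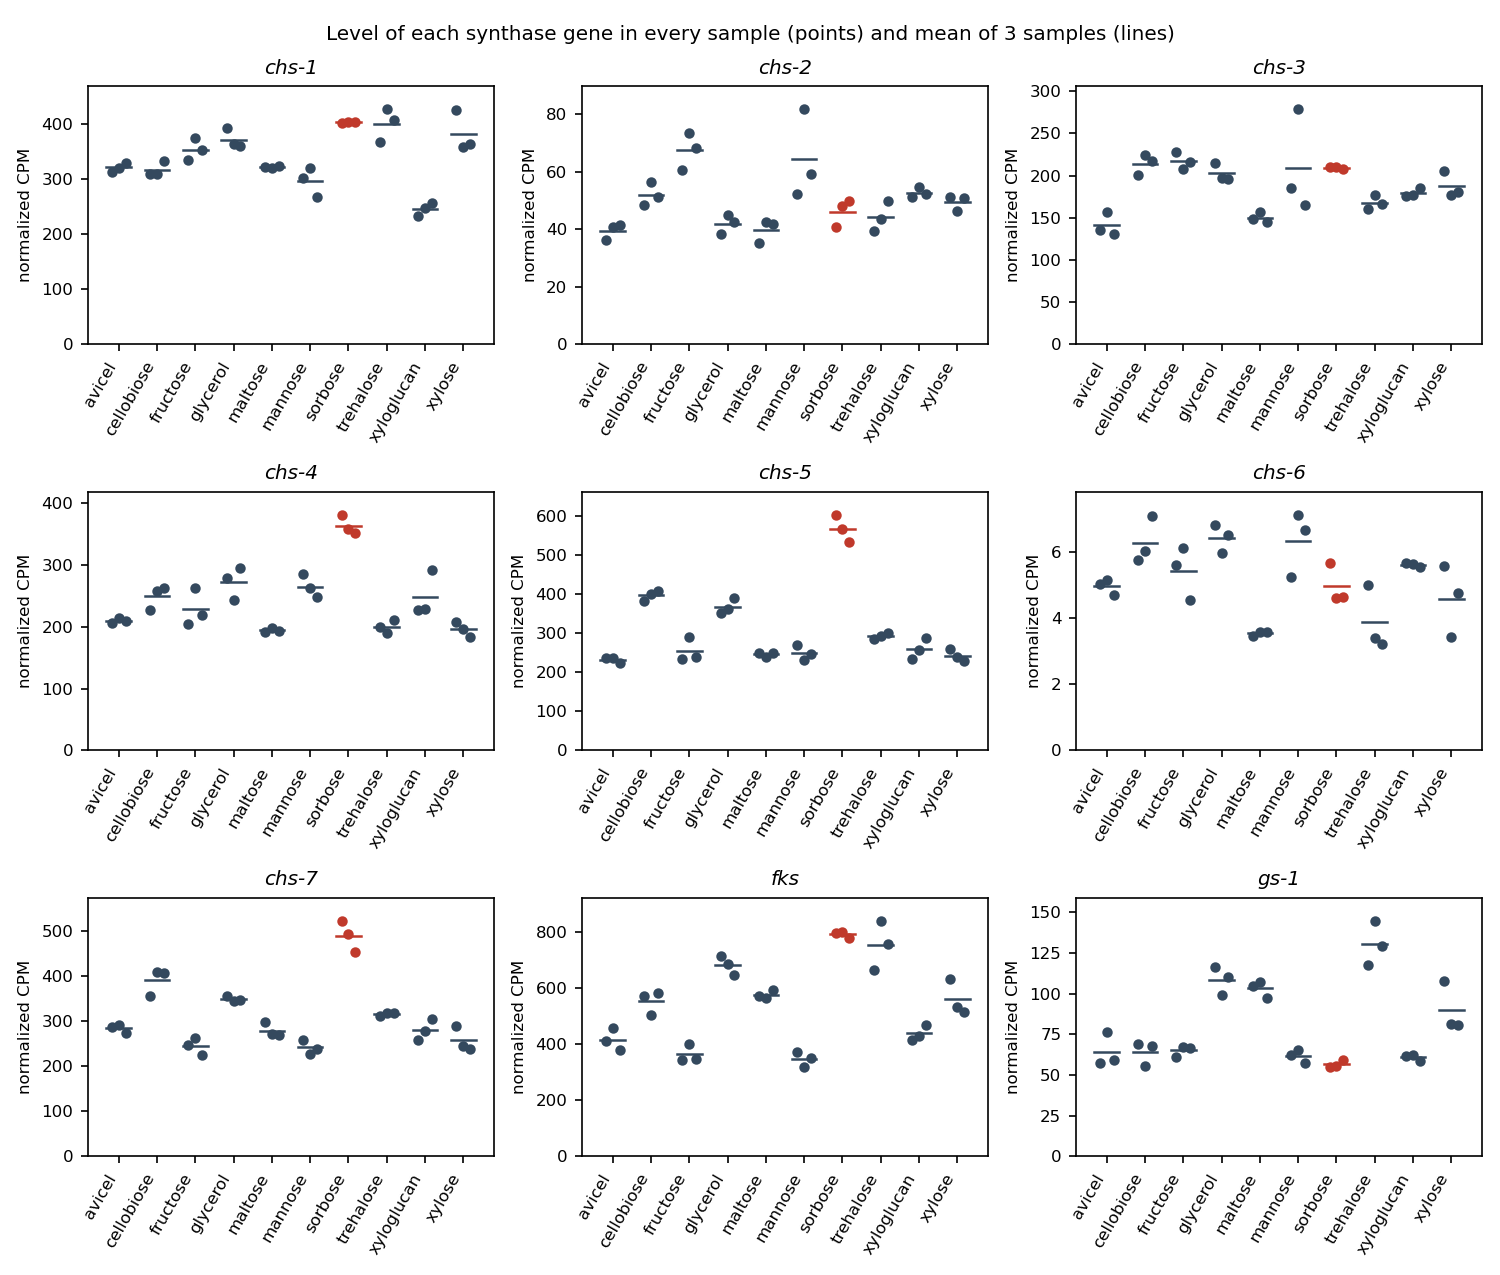
Normalized CPM (y axes, from 0) of each of the 9 genes in the 3 samples of each carbon source (x axes), with points for samples and lines for means and the sorbose samples in red. The sorbose points of *chs-4*, *chs-5* and *chs-7* lie above every other point, and those of *gs-1* lie among the lowest.

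In sorbose, 5 members rose and 1 fell against the mean of the other 9 sources. Those that rose were *chs-1*, *chs-4*, *chs-5*, *chs-7* and *fks*, and *gs-1* fell. Among all genes 17.7% rose and 16.9% fell in the same comparison. The median log2 fold change was 0.28 over the 9 members and -0.01 over all genes. Only *chs-5* also changed by more than 2-fold, the threshold that the study used beside an adjusted p under 0.01. With sorbose replicate 1 as the only sorbose sample, a setting added after the data were seen, 4 members rose and 0 fell, since *chs-1* (adjusted p 0.0695) and *gs-1* (adjusted p 0.0205) no longer passed edgeR's test while their log2 fold changes stayed at 0.28 and -0.54. Without TMM scaling the split of all called genes moved from 1502 higher and 1436 lower to 1882 higher and 987 lower, with 5 members higher and 1 lower as before.

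The largest change was that of *chs-5*, which lies on chromosome IV (assembly NC12, 3672145 to 3678922). Its levels in sorbose were 601, 567 and 532 CPM, a mean of 566 ± 34.5 (SD, n = 3). The next source was cellobiose with 383, 400.2 and 409 CPM, and glycerol followed with 352, 361 and 391 CPM. All 3 sorbose samples were thus above every sample of any other source, cellobiose and glycerol overlapped, and the other 7 sources lay between 225 and 301 CPM. The log2 fold change in sorbose was 1.03 with an SE of 0.06, a fold change of 2.04 with an adjusted p of 1.08e-12 by edgeR's quasi-likelihood test.

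*chs-7*, the other synthase with a myosin motor-like domain, had the same leading sources. It lies on chromosome IV at 3683097 to 3689591. Its levels in sorbose were 522, 495 and 455 CPM, in cellobiose 357, 411 and 408 CPM, and in glycerol 356, 345.5 and 347 CPM. Sorbose stood clear of cellobiose, the lowest cellobiose sample was just above the highest glycerol sample, and trehalose at 313, 319.9 and 318 CPM came next without touching glycerol. Below trehalose the sources overlapped from one to the next, down to mannose with a mean of 243 CPM. The log2 fold change in sorbose was 0.75 (SE 0.06, edgeR adjusted p 4.55e-10).

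Over the 10 source means of log2 CPM, *chs-5* and *chs-7* had a Pearson r of 0.95, the highest among the 36 pairs of members. These 10 points share the libraries and their scaling, and r is given as a description. The 2 genes lie 4174 bases apart on chromosome IV with 1 annotated gene, NCU04351, between them. That gene held 0 to 8 counts per sample with a median of 1 and did not pass the filter on low counts. It was looked up after the values of its neighbours were seen.

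*chs-4*, a class IV synthase, was also highest in sorbose. It lies on chromosome I at 4237057 to 4241723. The sorbose samples had 379.8, 357 and 351 CPM and those of glycerol, the next source, 279, 243 and 294 CPM. The sorbose samples did not overlap with any other source, whereas each of the other 9 overlapped with its neighbour down to maltose, whose mean was 194 CPM. The log2 fold change in sorbose was 0.67 (SE 0.07, edgeR adjusted p 3.72e-08). Over the source means *chs-4* had an r of 0.81 with *chs-5*.

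*chs-1*, a class III synthase and the most abundant of the family per kb, rose by less. It lies on chromosome V at 1835177 to 1839458. Its sorbose samples were very close to each other at 401, 402 and 403 CPM. They lay inside the range of trehalose, whose samples had 367, 425 and 406 CPM, and inside that of xylose, whose samples had 425, 357 and 362 CPM. Sorbose was therefore the highest mean of this gene without differing from trehalose beyond the spread of the samples. Against the mean of the other 9 sources its log2 fold change was 0.28 (SE 0.06, edgeR adjusted p 0.000402). Its lowest source was xyloglucan, with 232, 248 and 256 CPM, all below the samples of every other source.

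The other 3 chitin synthase genes did not pass the test in sorbose. *chs-3*, a class I synthase on chromosome V at 5359920 to 5364389, had 210.4, 210.4 and 207 CPM in sorbose, inside the range of cellobiose and mannose. Its log2 fold change was 0.19 with a 95% interval of 0.00 to 0.38 and an edgeR adjusted p of 0.0817. This call turned on 1 library, as mannose replicate 2 had 278 CPM beside 185 and 165 CPM in the other mannose samples, and without it the adjusted p was 0.00301 at a log2 fold change of 0.22.

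*chs-2*, a class II synthase on chromosome IV at 5644611 to 5649671, had 40.9, 48.0 and 49.8 CPM in sorbose, the sixth level of the 10 sources. Its log2 fold change against the other 9 was -0.10, with an interval of -0.30 to 0.10. *chs-6*, a class VI synthase on chromosome IV at 5526379 to 5529412, had 5.678, 4.603 and 4.647 CPM in sorbose and source means from 3.55 CPM in maltose to 6.43 CPM in glycerol. With 49 to 138 counts per sample its interval was wider, from -0.31 to 0.23 around a log2 fold change of -0.04. The sorbose values of *chs-6* do not exclude a change within this interval, which is not a limit of detection. In glycerol a log2 fold change of 0.37 for *chs-6* did not pass the test either (edgeR adjusted p 0.019).

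The 2 glucan synthase genes moved in opposite directions in sorbose. *fks*, on chromosome VII at 600470 to 608294, had 795, 798 and 778 CPM in sorbose and 664, 836.5 and 757 CPM in trehalose, the next source. Sorbose lay inside the range of trehalose, and glycerol, with 715, 687 and 645.5 CPM, overlapped with trehalose but not with sorbose. The log2 fold change of *fks* in sorbose was 0.65 (SE 0.07, edgeR adjusted p 7.58e-08).

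*gs-1*, on chromosome V at 5143236 to 5146931, had 55.2, 55.8 and 59.1 CPM in sorbose, the lowest of the 10 means. These values overlapped with xyloglucan, at 62.0, 62.5 and 58.7 CPM, and the low end of *gs-1* was shared by 6 sources with means from 56.7 to 65.2 CPM. Its upper end was formed by trehalose, with 118, 144 and 129 CPM, followed by glycerol, maltose and xylose with means of 108, 103 and 90.1 CPM. Against the mean of the other 9 sources *gs-1* in sorbose had a log2 fold change of -0.50 (SE 0.09, edgeR adjusted p 8.15e-05).

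The ratio of *fks* to *gs-1*, each per kb of gene span, was 6.59 ± 0.327 (SD, n = 3) in sorbose. It was 4.08 ± 0.196 in cellobiose and between 2.63 and 3.39 in the other 8 sources. The sorbose samples ran from 6.22 to 6.80 and no sample of another source exceeded 4.28. On glycerol and trehalose, where *fks* also rose, *gs-1* rose with it, so high *fks* beside low *gs-1* was found in sorbose. The ratio was formed after the values of both genes were seen and carries no test.

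**Figure D2:**
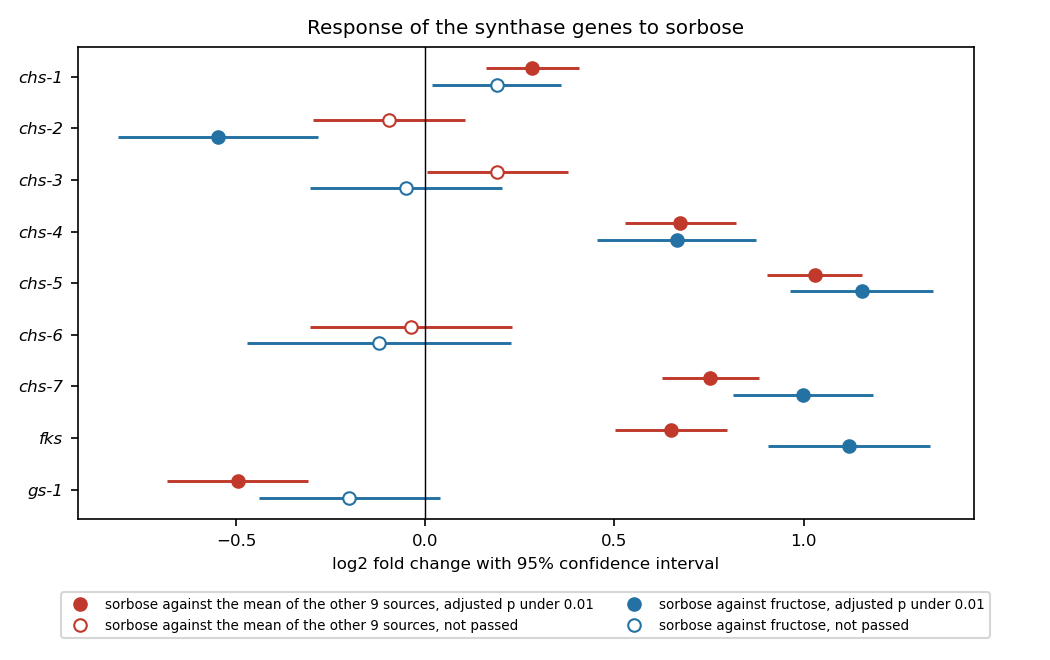
Log2 fold change (x axis) of each gene (y axis) in sorbose against the mean of the other 9 sources (red) and against fructose (blue), with bars for 95% confidence intervals and filled points for an adjusted p under 0.01. *chs-4*, *chs-5*, *chs-7* and *fks* lie to the right of 0 in both comparisons, and *chs-2* lies to the left of 0 with a filled point against fructose alone.

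Fructose is the other ketohexose of the series and was given at the same dose and for the same time. Against it, 4 members rose in sorbose and 1 fell, where 20.1% of all genes rose and 19.6% fell. The comparison uses the same sorbose samples as the one above and is no independent support for it. *chs-5* rose from 234, 290.2 and 239.6 CPM in fructose, a log2 fold change of 1.15 (SE 0.09, edgeR adjusted p 4.18e-10). *fks* rose from 343, 399.9 and 348 CPM, a log2 fold change of 1.12 (SE 0.10, edgeR adjusted p 4.23e-09). These were the 2 members that changed by more than 2-fold.

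*chs-7* rose from 248, 263 and 226 CPM in fructose, with a log2 fold change of 1.00 (SE 0.09, edgeR adjusted p 2.84e-09). *chs-4* rose from 205, 262 and 219.6 CPM, with a log2 fold change of 0.66 (SE 0.10, edgeR adjusted p 6.9e-06). For none of these 4 genes did a sorbose sample overlap with a fructose sample. *chs-2* fell, with 60.7, 73.5 and 68.3 CPM in fructose, by 0.55 on the log2 scale (SE 0.13, edgeR adjusted p 0.000876), and its groups did not overlap either.

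The remaining 4 members did not pass the test against fructose. The log2 fold change was 0.19 for *chs-1* (95% interval 0.02 to 0.36), -0.05 for *chs-3* (-0.30 to 0.20), -0.12 for *chs-6* (-0.47 to 0.23) and -0.20 for *gs-1* (-0.44 to 0.04). *gs-1* had 61.2, 67.5 and 66.85 CPM in fructose, all above its 3 sorbose values. *fks* was near its lowest level in fructose and at its highest in sorbose, while *gs-1* was in the low part of its range on both ketohexoses.

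**Figure D3:**
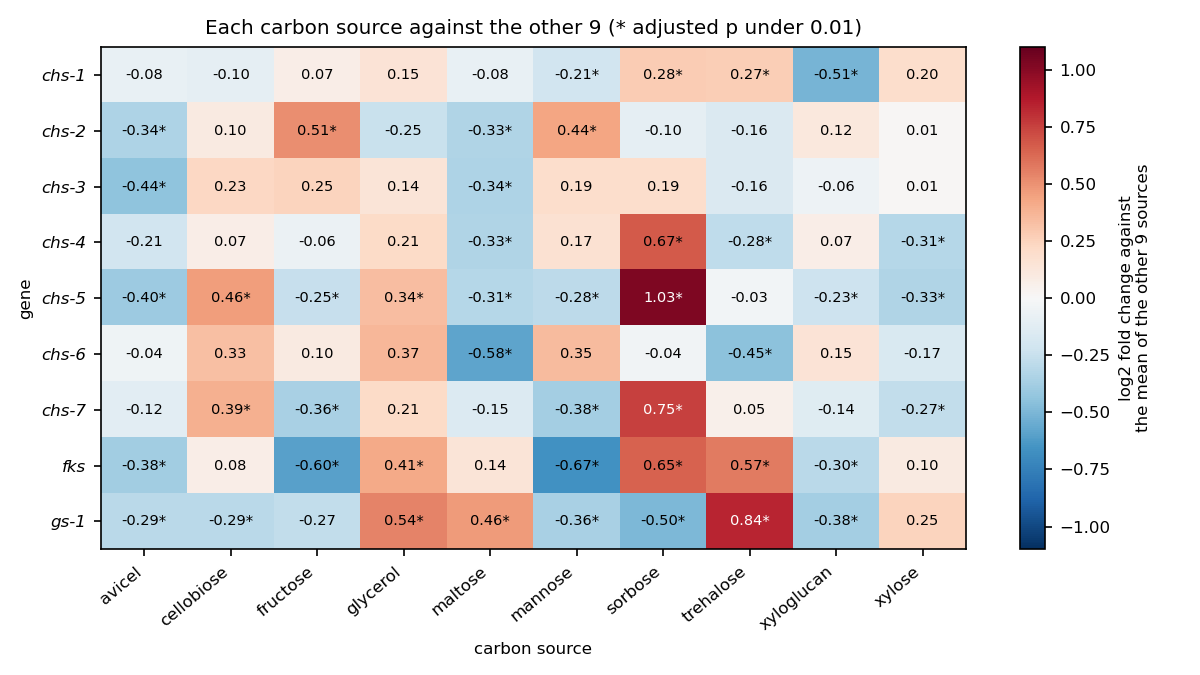
Log2 fold change of each gene (rows) on each carbon source (columns) against the mean of the other 9, coloured from blue for lower to red for higher, with stars for an adjusted p under 0.01. The sorbose column holds the largest single value, 1.03 for *chs-5*, and the fructose and mannose columns hold the lowest values of *fks*, -0.60 and -0.67.

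The same comparison was made for each of the other 9 sources, so that sorbose can be read beside them. No member changed by more than 2-fold on any of these. The comparisons share all their samples, and each is given by its own values.

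The 2 hexoses other than sorbose had low *fks* and high *chs-2*. In fructose 1 member rose (19.8% of all genes) and 3 fell (20%). *chs-2* rose by a log2 fold change of 0.51, while *chs-5* (-0.25), *chs-7* (-0.36) and *fks* (-0.60) fell. In mannose 1 member rose (27.2% of all genes) and 5 fell (24.8%). *chs-2* rose by 0.44 on the log2 scale, and *fks* (-0.67), *chs-7* (-0.38), *gs-1* (-0.36), *chs-5* (-0.28) and *chs-1* (-0.21) fell. *fks* had 373, 320 and 351 CPM in mannose, which overlapped with fructose, and the mannose samples of *chs-2* were spread from 52.4 to 81.7 CPM. Without TMM scaling the fall of *chs-5* in fructose no longer passed (adjusted p 0.0139).

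Among the disaccharides, cellobiose had 2 members that rose (27.5% of all genes) and 1 that fell (30%). *chs-5* (0.46) and *chs-7* (0.39) rose and *gs-1* (-0.29) fell. Cellobiose was the source whose scaling mattered most, since without TMM its median over all genes moved by -0.179 on the log2 scale and the split from 2341 higher and 2551 lower to 1647 and 3505, while the log2 fold changes became 0.28 for *chs-5*, 0.21 for *chs-7* and -0.47 for *gs-1*. All 3 still passed, and *chs-1* passed as lower in addition (-0.28, adjusted p 0.00046).

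In trehalose 3 members rose (30% of all genes) and 2 fell (27%). *gs-1* rose by 0.84, its highest level, and *fks* (0.57) and *chs-1* (0.27) rose too, while *chs-4* (-0.28) and *chs-6* (-0.45) fell. In maltose only *gs-1* rose, by 0.46 (20.7% of all genes rose), and 5 members fell (17.5%). These were the chitin synthase genes *chs-2* (-0.33), *chs-3* (-0.34), *chs-4* (-0.33), *chs-5* (-0.31) and *chs-6* (-0.58). Leaving out trehalose replicate 2 reduced the 5 calls in trehalose to 3, and without TMM the rise of *chs-1* in trehalose (adjusted p 0.0134) and the falls of *chs-2* and *chs-3* in maltose (adjusted p 0.0305 and 0.0131) did not pass.

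In glycerol 3 members rose (15.3% of all genes) and 0 fell (11.9%). These were *gs-1* (0.54), *fks* (0.41) and *chs-5* (0.34), and the log2 fold changes of all members but *chs-2* (-0.25, not passed) were above 0. The count rose to 5 without xyloglucan replicate 3, and to 7 without TMM, where the split of all genes moved from 1301 higher and 1009 lower to 1629 and 725.

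On the 2 plant wall polysaccharides and on xylose 0 members rose by edgeR's test with TMM. In avicel 0 members rose (23.2% of all genes) and 5 fell (23.4%), which were *chs-3* (-0.44), *chs-5* (-0.40), *fks* (-0.38), *chs-2* (-0.34) and *gs-1* (-0.29). In xyloglucan 0 rose (23.5%) and 4 fell (22.3%), with *chs-1* at -0.51 as the largest change, followed by *gs-1* (-0.38), *fks* (-0.30) and *chs-5* (-0.23). In xylose 0 rose (10.8%) and 3 fell (7.34%), which were *chs-5* (-0.33), *chs-4* (-0.31) and *chs-7* (-0.27). *chs-1* did not pass in xylose (0.20 on the log2 scale, adjusted p 0.0146) but passed as higher without TMM (0.23, adjusted p 0.00626) and with DESeq2 (0.18, adjusted p 0.00428).

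These counts were sensitive to single libraries. In avicel 3 members fell without avicel replicate 1 or without avicel replicate 3, and in xyloglucan 2 fell without xyloglucan replicate 1 or without xyloglucan replicate 2, as they did without TMM. In xylose 1 member was called without xylose replicate 2 and 0 without xylose replicate 3.

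**Figure D4:**
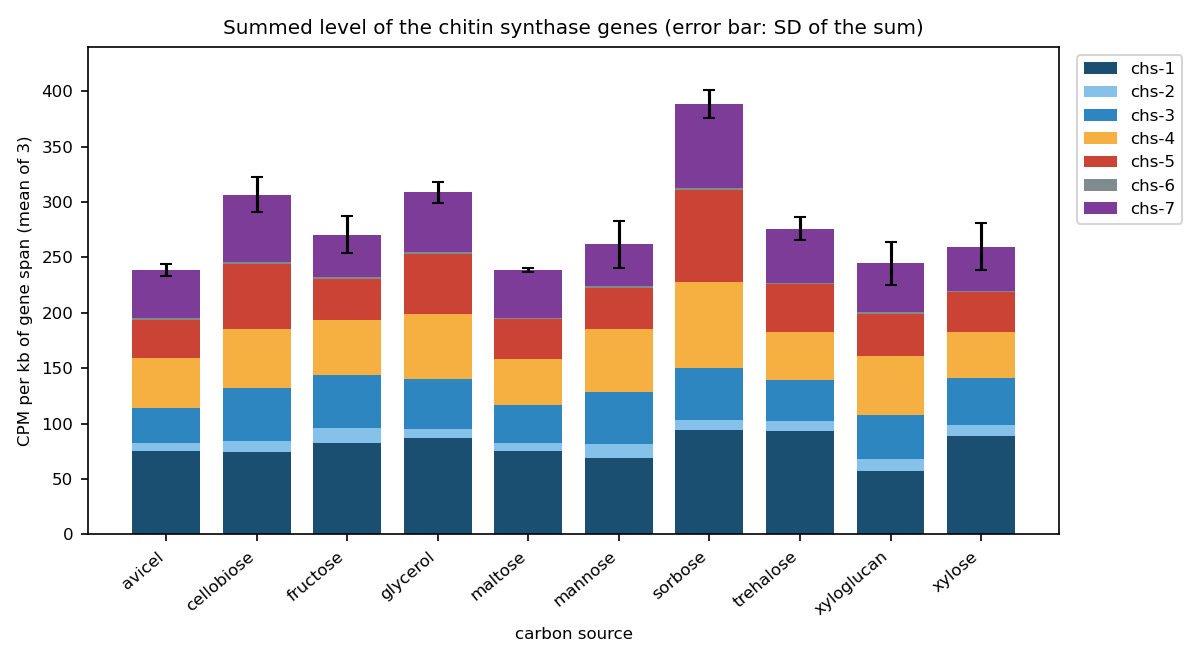
Summed level of the chitin synthase genes (y axis, CPM per kb of gene span, mean of 3 samples) on each carbon source (x axis), stacked by gene, with error bars for the SD of the sum. The sorbose bar reaches 388 and the other 9 lie between 239 and 309.

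Added over the 7 genes, the chitin synthase level was 388 ± 12.7 CPM per kb of gene span (SD, n = 3) in sorbose, with samples from 376 to 401. The next sources were glycerol at 309 ± 9.48 and cellobiose at 306 ± 15.9, and the lowest were avicel and maltose at 239 ± 5.30 and 239 ± 1.82. No sample of another source exceeded 318. The sum was described after the single genes were seen.

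The make-up of this sum also differed by source. *chs-5* made up 21.5% ± 0.609 of it in sorbose and from 13.8% to 19.1% elsewhere, while *chs-1* made up 24.2% in sorbose, 24.1% in cellobiose, 23.5% in xyloglucan and up to 34.2%, in xylose, elsewhere. *chs-3* had its lowest share in sorbose, 12.1%, although its own level there was the fourth of 10, and the share of *chs-2* was 2.36% in sorbose and 4.93% in fructose. *fks* relative to the summed chitin synthases was 0.260 in sorbose, between 0.171 in mannose, 0.172 in fructose and 0.348 in trehalose. The ratio in sorbose thus lay inside the range of the other sources.

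Patterns over the 10 source means placed the members in loose company. Beside *chs-5* with *chs-7* and *chs-4*, *chs-7* had an r of 0.75 with *fks*, and *chs-2* had an r of 0.69 with *chs-3* and of -0.63 with *fks*. *fks* and *gs-1* had an r of 0.53 (n = 10 means throughout). Among 6752 other genes with a mean of at least 10 CPM, the gene most like *chs-2* was *vma-5* (r = 0.97), which encodes a subunit of the vacuolar proton-pumping ATPase, and the gene most like *chs-4* was NCU00399 (r = 0.94), annotated in the study as a cell wall protein PhiA. The nearest genes of the others were NCU00774 for *chs-1* (0.95), NCU02830 for *chs-3* (0.93), NCU01477 for *chs-5* (0.95), NCU07447 for *chs-6* (0.95), NCU01004 for *chs-7* (0.93), NCU09079 for *fks* (0.98) and NCU08499 for *gs-1* (0.97). Each of these is the extreme of 6752 values of r over 10 points and is given as a description.

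Other wall genes give the setting of these changes. Of the regulators of the synthases and the wall integrity pathway, 2 of 7 rose in sorbose against the other 9 sources and 0 fell. Over all genes 17.7% rose and 16.9% fell. *mek-1*, the MAP kinase kinase of the pathway, rose by a log2 fold change of 0.50 (edgeR adjusted p 1.71e-05), from a mean of 307 CPM to 433 CPM. NCU02558, annotated as a MADS-box transcription factor, rose by 0.35 (edgeR adjusted p 0.00517). NCU02592, annotated as a chitin synthase activator, had a log2 fold change of 0.08 and did not pass the test. *pkc*, *mak-1*, *mik-1* and *rgf1* had values between -0.20 and -0.05 and did not pass either. The median of the list was -0.05, beside -0.01 over all genes. Against fructose 0 of the 7 rose and 1 fell, where 20.1% of all genes rose and 19.6% fell. The gene that fell was *mak-1*, the MAP kinase of the pathway (-0.44, edgeR adjusted p 7.87e-05). *mek-1* (0.24, edgeR adjusted p 0.0821) and NCU02558 (0.20, edgeR adjusted p 0.233) did not pass.

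Of the 2 genes annotated as alpha-1,3-glucan synthases, which make a different wall glucan, 1 rose in sorbose, where 17.7% of all genes rose. NCU02478 had plain means of 32.9 CPM on the other sources and 111 CPM in sorbose. Its log2 fold change against the mean of the log2 levels was 1.98 (SE 0.08, edgeR adjusted p 6.53e-16). NCU08132, the more abundant at 200.0 CPM in sorbose and 240.3 CPM elsewhere, had a log2 fold change of -0.21 and did not pass. Against fructose NCU02478 rose by 2.55 on the log2 scale and NCU08132 did not pass (0.10).

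Among the 4 glucanosyltransferase genes (*gel*), whose products lengthen and link beta-1,3-glucan chains in the wall, 2 rose and 1 fell. Over all genes 17.7% rose and 16.9% fell. *gel-3* rose by 1.14 on the log2 scale, to 1332 CPM from 638 CPM (edgeR adjusted p 3.82e-08), and *gel-4* rose by 0.69 (edgeR adjusted p 0.000184). The gene that fell, *gel-5*, was under the mean of 10 CPM set for named genes and is named here because it is the only one. The median of the list was 0.49. Against fructose 2 rose, *gel-3* (1.71) and *gel-4* (1.37), and 0 fell, where 20.1% of all genes rose and 19.6% fell.

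**Figure D5:**
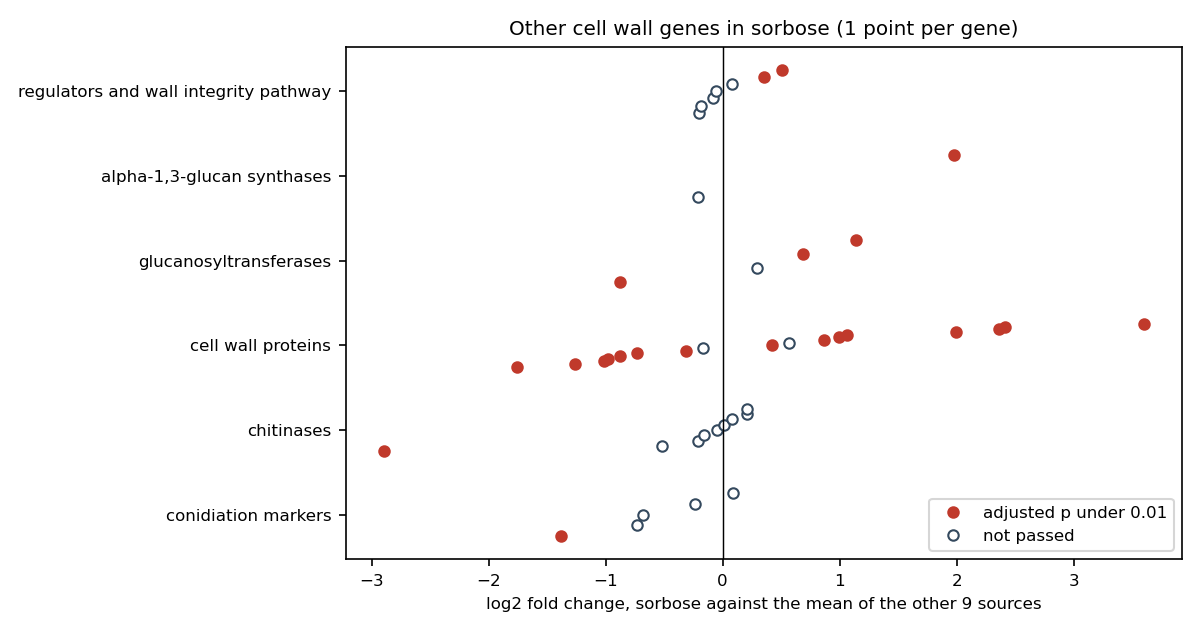
Log2 fold change in sorbose against the mean of the other 9 sources (x axis) of the other wall genes and the conidiation markers, 1 point per gene, by list (y axis), with filled points for an adjusted p under 0.01. The cell wall proteins spread on both sides of 0, from -1.76 to 3.60, and 1 chitinase gene lies at -2.90.

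Genes named for cell wall proteins (*acw* and *ncw*) moved most and in both directions, with 8 of 17 higher, 7 lower and 2 not passed. Over all genes 17.7% rose and 16.9% fell. The median of the list was 0.42. *ncw-5* had a log2 fold change of 3.60 and *ncw-1* one of 2.41, both against the mean of the log2 levels of the other sources. The plain CPM means were 73.5 on the other sources and 381 in sorbose for *ncw-5*. For *ncw-1* they were 942 and 4413. At the other end *ncw-2* fell by 1.76 and *acw-6* fell by 1.26 on the log2 scale. Against fructose 7 rose and 5 fell, where 20.1% of all genes rose and 19.6% fell.

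Of 10 chitinase genes, whose enzymes cut chitin, 9 were tested, 1 fell in sorbose and 0 rose. Over all genes 16.9% fell and 17.7% rose, so the count that fell stands near the background. The gene that fell was *chit-1*, with plain means of 18.1 CPM in sorbose and 188 CPM on the other sources. Its log2 fold change against the mean of the log2 levels was -2.90 (SE 0.32, edgeR adjusted p 8.26e-08). The other 8 had log2 fold changes between -0.52 and 0.21. The median of the list was -0.05. Against fructose the log2 fold change of *chit-1* was smaller, at -1.16 (edgeR adjusted p 0.00705). There 2 chitinase genes fell, the other being *gh18-7* (-0.98, edgeR adjusted p 0.000448), where 19.6% of all genes fell.

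Of the 5 conidiation markers 1 passed, *con-10*, which fell by 1.38 on the log2 scale (edgeR adjusted p 0.000129). Over all genes 16.9% fell, so this count stands near the background. *con-6*, *con-8*, *con-13* and *eas* had log2 fold changes between -0.73 and 0.08. *hex-1* rose by 0.61 (edgeR adjusted p 0.00168). Against fructose *hex-1* rose by 1.08 (edgeR adjusted p 0.000171), beside 1.15 for *chs-5* and 1.12 for *fks*. In that comparison 2 conidiation markers fell, *con-10* by 2.73 and *con-13* by 1.36 on the log2 scale, where 19.6% of all genes fell. *con-13* had means of 2.03 CPM in sorbose and 5.18 CPM in fructose, under the mean of 10 CPM set for named genes. The part of conidiating or hyphal cells in the changes of the synthase genes was not tested. Without the cellobiose samples, which had the lowest conidiation marker sums, 5 members rose and 1 fell in sorbose.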

How the data were processed

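The authors filtered reads by base quality, mapped them with TopHat 2.0.4 to predicted transcripts of version 12 of the *N. crassa* genome and counted them per gene with HTSeq 0.6.0, and the deposited tables hold these raw counts, 1 table per sample. Reads outside genes, ambiguous or mapped to several places are separate totals there and entered no library size. From 0.217% to 6.05% of reads mapped to several places, with the highest shares, 5.36% and 6.05%, in sorbose replicates 2 and 3. Whether strand was used in counting is not given in the sources used here. Groups and replicate numbers come from the sample labels.

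The tests were run with edgeR 4.0.16 under R 4.3.3 (filterByExpr, TMM, 1 quasi-likelihood fit that holds every sample and 1 mean for each source, 20 residual degrees of freedom, Benjamini-Hochberg adjustment over 8501 genes). Genes were called at an adjusted p under 0.01. SEs are the log2 fold change over the square root of F, and intervals are 95%. CPM are on TMM-scaled library sizes, and log2 CPM used a prior count of 1. Gene positions, spans and symbols come from RefSeq's table of assembly NC12, where 9757 of 9758 identifiers matched. It gives spans rather than transcript lengths, so levels per kb are per kb of gene span. The fit was tested on simulated data. These had the same spread setting for all genes and changes in sorbose only, unlike the real counts, so they do not measure its accuracy here.

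The members and lists were chosen with earlier results of these data known. From each list up to 2 highest and 2 lowest called genes with a mean of at least 10 CPM are named, and for each member the non-member with the highest r. Genes named beyond that rule were chosen after their values were seen. NCU05720 and NCU06781 were dropped from the lists as unannotated in the sources used here, and 1 further list gene is not reported here. Genes of UDP-sugar supply, promoter motifs and protein comparisons were not analysed here. Alternatives were DESeq2 1.42.0, no TMM, no low-count filter, a replicate block, a covariate for the share of reads outside genes, a fit of the 6 sorbose and fructose samples, a 2-fold threshold and leaving out each sample.

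The chi-square per degree of freedom between pairs of replicates ran from 5.36 to 224, with a median of 39.9. The lowest value was that of sorbose replicates 2 and 3, the most alike pair of the series. All values were above sampling noise, so no sample was counted as a duplicate.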

Additional observations from a re-analysis of the deposited data

How the results depend on the processing

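Among 675 values of single members under the alternatives in the 2 sorbose comparisons, 672 kept their side of the threshold. For each member and comparison 30 of the values left out 1 sample each, mostly a sample of another source than sorbose. Such values can move little, so this count is no measure of robustness. The sign changed in 8 values, all of *chs-6*, which passed the test in 0 of them. On the other sources member calls changed with the scaling and the tool: DESeq2 added *gs-1* lower in fructose (adjusted p 0.00601), *chs-6* higher in cellobiose (0.00802) and *chs-7* higher in glycerol (0.00538). Requiring a fold change over 2 as well left 1 member higher and 0 lower in sorbose against the other 9 sources. Against fructose it left 2 higher and 0 lower. It left 4 varying over the 10 sources and 0 called members on each of the other 9 sources. Over all 8501 genes the counts were 608 in sorbose, 1284 against fructose and 277 to 1533 on the other sources. The 4 varying members stood beside a median range of 2.27 times over genes with a mean of at least 10 CPM. Without TMM the called members were 7 in glycerol and 2 in xyloglucan. With sorbose replicate 1 as the only sorbose sample (chosen after seeing the data), 0 members were lower in sorbose; the lone sample is assumed to vary like the other groups. Leaving out each sample in turn gave 3 to 5 called members in each of avicel, glycerol, trehalose and fructose. It gave 2 to 4 in xyloglucan and in cellobiose, 0 to 4 in xylose, 4 to 6 in maltose and 4 to 7 in mannose. Sorbose kept 5 to 6 higher and 1 lower. The mean correlation of deviations was 0.07 between samples of equal replicate number (from -0.33 to 0.51) and -0.04 between different numbers. Of the 30 samples, 11 were nearest to their own number. The share of reads outside genes did follow the replicate number in part. Replicate 1 had the lowest share on each source but avicel, cellobiose and xyloglucan, as in trehalose with 2.55% against 5.58% and 6.61%. The low correlations therefore do not show that samples of equal number were unrelated. The fit with a replicate block called 5 members higher and 1 lower in sorbose, 4 and 1 against fructose, and 9 varying. The log2 ratio of sorbose to fructose within replicate 1 was 0.89 for *chs-4* and 1.36 for *chs-5*, and 0.56 and 1.05 within replicates 2 and 3. *chs-6*, with 49 to 138 counts per sample, had the widest intervals of the 9 genes.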
